A study of Mus musculus with 86 samples.

Results

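The 3′ UTR of mouse Wasf3 (ENSMUSG00000029636) was represented by 801 of the 11955 oligos in a reporter pool drawn from 16 genes. The oligos were taken by name: every oligo carrying the Wasf3 label was kept, which gave 530 wild-type oligos and 271 companions in which the TDP-43 motifs had been mutated. Each oligo was 260 nt long and neighbouring oligos started 6 nt apart, so that adjacent oligos shared nearly all of their sequence and are not independent of each other. The wild-type oligos are called tiles and are numbered from the 5′ side.

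TDP-43, encoded by Tardbp, is an RNA-binding protein that recognises GU-rich RNA, regulates RNA processing and stability, and is lost from the nucleus in affected neurons in amyotrophic lateral sclerosis. Wasf3 (WAVE3) belongs to the WAVE family, which receives signals from the small GTPase Rac and activates the Arp2/3 complex, the machinery that nucleates branched actin filaments. Actin branching of this kind shapes growth cones and neurites, the thin processes of neuronal cells. An RNA can accumulate in neurites because it is transported there or because it is stable enough to be found there, and 3′ UTRs often hold the sequences concerned.

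The same pool was used in a massively parallel reporter assay (MPRA), where each oligo sat in the 3′ UTR of a GFP reporter, in RNA bind-n-seq (RBNS), where recombinant SBP-tagged TDP-43 selected RNA transcribed from the pool, and in SLAM-seq, where 4-thiouridine (4SU) labelled the reporter RNA before a chase. The cells were CAD, a mouse catecholaminergic neuronal line, and endogenous RNA was also measured in CAD and in N2A, a mouse neuroblastoma line. In these cells the endogenous Tardbp alleles had been inactivated by CRISPR and a single-copy HA-tagged TDP-43 transgene was shut off by doxycycline. Cells without doxycycline are therefore the wild-type group, and cells given doxycycline for 48 h are the knockout group. The labels give its dose as 2 µg/mL, and the study's methods give a lower one for cells that were fractionated. Both groups carried the edited alleles and the transgene, and the lines came from single-cell clones. For the MPRA and the endogenous RNA the cells grew on porous membranes, which separate neurites from soma. There were 4 MPRA libraries for each compartment and genotype, 3 libraries for each compartment and genotype in the endogenous RNA of each line, and in RBNS 1 input library, 1 library without protein (0 nM) and 2 libraries each at 5, 50 and 500 nM TDP-43. SLAM-seq had 3 libraries per genotype and chase time (0 or 12 h), except for 2 analysed here in wild-type cells at 0 h. It also had 3 libraries without 4SU, which the labels list without doxycycline, as in the wild-type group. A further set of CAD cells had unedited Tardbp alleles and a doxycycline-inducible single-copy HA-TDP-43 transgene, wild type or with the mutation Q331K, with 3 libraries for each compartment and transgene. Per the study, expression of the transgene lowers the endogenous protein. The labels do not say whether libraries of 1 group came from separate cultures, so the p-values measure the spread between these libraries. In RBNS the 1 input library was assumed to vary like the others, since its own spread could not be measured. In RNA pooled from many cells, fewer cells with a reporter and less RNA per cell cannot be told apart.

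The MPRA libraries held 7923270 to 12208997 unique molecular identifiers (UMIs), the RBNS libraries 1806779 to 9646262 reads and the SLAM-seq libraries 10782983 to 33024830 reads. All 801 Wasf3 oligos were detected in all 16 MPRA libraries and passed the filter on low counts there. RBNS listed 727 to 797 of them per library and SLAM-seq 735 to 752. The RBNS test, which required 20 input reads, kept 481 of the 530 tiles and 257 of the 271 mutated companions. The SLAM-seq test, which required 1000 sequenced T positions in each of the 11 labelled libraries, kept 484 tiles and 224 mutated companions. Reads from the transgene and from the edited Tardbp alleles were not told apart here. The RNA assigned to Tardbp, the targeted gene, fell in the endogenous libraries of knockout cells. In CAD cells it went from 884 ± 187 to 136 ± 22.1 TPM (transcript share scaled for length) in soma and from 261 ± 68.5 to 80.5 ± 2.70 in neurites, and in N2A cells from 873 ± 113 to 245 ± 15.2 in soma and from 374 ± 115 to 158 ± 47.6 in neurites (SD, n = 3). In SLAM-seq, replicate 1 of the knockout cells at 12 h stood apart from its group, with 1.37% of T positions over the whole pool read as C against 0.465% and 0.511% in the other two libraries, and results that rest on it are given with and without it.

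The Wasf3 3′ UTR covers chr5:146470378-146473615 on the plus strand of GRCm38. It is 3238 nt long, lies wholly in the last of 10 exons and belongs to a single annotated transcript of 5196 nt. Tile 1 started 100 nt before the UTR, in the last coding stretch, and tile 530 ended 96 nt past the annotated end, so that the tiles together covered chr5:146470278-146473711. The UTR holds 17 starts of a TDP-43 motif (7 of GUGUG, 10 of UGUGU and none of the other motif tested, GUAUG), or 5.25 per kb, in 10 separate runs. Because each run falls in many tiles, 271 tiles carried at least one motif and 259 carried none. Motifs and repeats were searched on the transcript strand only. The 2 longest motif runs and the only run that fell within tiles responding to TDP-43 loss are shown here from the plus strand of GRCm38, 5′ to 3′, with U written as T and the motif run in capitals.
UTR 358 to 387, chr5:146470735-146470764: agatcactggcTGTGTGTctcagtgatgtc
UTR 1432 to 1461, chr5:146471809-146471838: atcgcctgctaTGTGTGTGgacgcctgtcc
UTR 2302 to 2331, chr5:146472679-146472708: tatagtgttccaTGTGTattgtagctgagt

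The next sequences come from stretches with few or no motifs. The first is the densest part of a GGAU repeat (7 copies of GGAT in capitals), the second a neighbouring part rich in GGUGG (3 copies of GGTGG in capitals), both shared by tiles that responded most to TDP-43 loss. The third is the middle of tile 359, one of the 2 tiles least recovered with TDP-43 at 500 nM in vitro, with T in capitals.
UTR 2568 to 2597, chr5:146472945-146472974: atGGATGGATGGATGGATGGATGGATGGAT
UTR 2531 to 2560, chr5:146472908-146472937: atgataGGTGGTGGatggttgagtgGGTGG
UTR 2164 to 2193, chr5:146472541-146472570: TTTagaTTTTTgaTTTccacTTTTTTTTTa

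The MPRA asked which pieces of the UTR made a reporter's localization depend on TDP-43. Neurite enrichment is given as the localization ratio (LR), the log2 of the neurite level over the soma level after scaling by the trimmed mean of M-values (TMM), and the LR change is the knockout LR less the wild-type LR. Of the 530 tiles, 55 (10.4%) had a higher LR in knockout cells and none had a lower one (edgeR's quasi-likelihood test, Benjamini-Hochberg FDR of 0.01 over all oligos tested). Over the whole pool 5.15% of 11918 oligos were higher and 0.277% were lower, and the 55 tiles made up 8.96% of the 614 oligos that were higher. At an unadjusted p under 0.05, 73 tiles passed in either direction, and DESeq2 called 56 tiles higher and 0 lower. With a minimum of 100 UMIs in every library 32 tiles were higher, since 23 tiles of the run fell below it. The 55 tiles were consecutive, from tile 395 to tile 449 with no gap, and together covered 584 nt of the UTR, from position 2265 to 2848. The median LR change over these tiles was 2.87 (range 0.42 to 3.66), against 0.00 over tiles 1 to 394, -0.03 over tiles 450 to 464 and 0.00 over tiles 465 to 530. The limits of the run were set by the calls, so no test was made on the run as a whole.

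The change rose and fell along the UTR over short distances. Tile 394, just outside the run, had an LR change of 0.11 (SE 0.09, adjusted p = 0.870 by edgeR), and tile 395, just inside, one of 0.42 (SE 0.09, adjusted p = 0.00162). The change was 1.18 at tile 397, 1.94 at tile 403, 2.37 at tile 405 and 3.12 at tile 408. From tile 408 to tile 435, 25 of the tiles exceeded 3. It then fell to 2.90 at tile 436, 2.08 at tile 440, 1.62 at tile 443 and 0.70 at tile 449 (adjusted p = 7.8e-07), and was -0.03 at tile 450 (adjusted p = 0.980). A shift of the reporter sequence by 6 nt thus separated the last called tile from the first uncalled one at the 3′ end. In windows of 20 tiles, the highest median LR change was 3.30, at tiles 421 to 440. The median LR of that window was 4.13, 3.97, 4.26 and 4.34 in the 4 knockout replicates and 0.96, 0.80, 1.05 and 1.06 in the 4 wild-type replicates.

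The largest LR changes were those of tiles 413, 421, 419, 410 and 431, none of which carried a motif. Tile 413 had 203, 150, 178 and 167 UMIs in wild-type soma and 293, 140, 217 and 205 in wild-type neurites. In knockout cells it had 627, 519, 531 and 584 UMIs in soma and 4226, 4094, 6310 and 5723 in neurites. Its scaled level was higher in both compartments of knockout cells, and the neurite level rose most. In TMM-scaled CPM (counts of UMIs scaled to library size) it went from 15.2 ± 1.36 to 48.5 ± 2.98 in soma and from 19.3 ± 3.27 to 789 ± 122 in neurites (SD, n = 4). Its LR was 0.47, -0.03, 0.45 and 0.43 in wild-type cells and 3.89, 3.88, 4.11 and 4.17 in knockout cells, a change of 3.66 (SE 0.17, adjusted p = 4.18e-15 by edgeR), which ranked 110 in the pool.

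Tile 421 had 143, 98, 109 and 105 UMIs in the soma of wild-type cells and 274, 150, 197 and 152 in their neurites. Knockout cells had 418, 414, 317 and 361 UMIs of it in soma and 3940, 3749, 5466 and 5019 in neurites. Its LR was 0.81 ± 0.17 in wild-type cells and 4.44 ± 0.28 in knockout cells (SD, n = 4), a change of 3.61 (SE 0.18, adjusted p = 1.82e-14 by edgeR). Tile 419 had an LR of 0.62 ± 0.14 in wild-type and 4.21 ± 0.31 in knockout cells (SD, n = 4). For tile 410 these values were 0.27 ± 0.14 and 3.86 ± 0.17, and for tile 431 they were 0.58 ± 0.29 and 4.17 ± 0.13. Wild-type and knockout replicates did not overlap in any of these tiles, but the tiles were picked for their large LR change, so this adds no support.

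Changes in the separate compartments extended slightly further than the change in LR. In soma, 61 tiles were higher in knockout cells (7.55% of the pool was) and 1 was lower (0.101% of the pool was). Of the 61, 53 lay in the run and 8 before it, from tile 379. In neurites, 67 tiles were higher (8.06% of the pool) and 1 was lower (0.696% of the pool), with all 55 tiles of the run and 12 before it, from tile 381, among the higher ones. The median log2 change in the run was 1.30 in soma (0.20 to 2.04) and 4.33 in neurites (0.88 to 5.52), so the level went up in both compartments, by more in neurites. Among the tiles before the run the largest change was 0.57 in soma and 0.90 in neurites, and none of these tiles was called for the LR change. The single lower tiles were tile 91 in soma (-0.22, adjusted p = 0.00958 by edgeR) and tile 219 in neurites (-0.22, adjusted p = 0.00714). The scaling set the level against which these changes are read: with total counts in place of TMM, the median change over all oligos moved to -0.12 in soma, -0.64 in neurites and -0.51 in LR. With that scaling 51 tiles were called higher in LR and 455 lower, and with upper-quartile scaling 54 were called higher and 0 lower, so the count of lower tiles depends on the scaling.

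A strip of tiles was enriched in neurites in wild-type cells too. In wild-type cells 55 tiles had a higher level in neurites than in soma (2.57% of the pool did), all between tiles 398 and 464, and 2 had a lower one (1.48% of the pool did). Of the 55, 40 lay in the run and the other 15 were exactly tiles 450 to 464, which follow it. These 15 tiles had no motif and none was called for the LR change. Their median LR was 1.03 with TDP-43 and 0.94 without it, and their LR changes lay between -0.14 and 0.11. Tile 450, the strongest, had an LR of 1.92, 2.22, 2.14 and 2.15 in wild-type cells and of 2.06, 2.00, 2.00 and 2.26 in knockout cells, so the 2 genotypes overlapped. Its fitted LR in wild-type cells was 2.11 (SE 0.07, adjusted p = 2.76e-17 by edgeR). Within the run, the LR in wild-type cells was uneven. It was 1.16 at tile 403 and 1.86 at tile 440, with a dip between, where tile 417 was lower in neurites than in soma (-0.76, SE 0.18, adjusted p = 0.00957). The other lower tile was 504 (-0.20, adjusted p = 0.00834). Tile 440 thus combined both patterns, with an LR of 1.86 ± 0.15 in wild-type and 3.93 ± 0.12 in knockout cells (SD, n = 4).

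Most tiles called for the LR change carried no TDP-43 motif, and most tiles with a motif were not called. Of the 55 tiles with a higher LR, 46 had no motif, which is 17.8% of the 259 tiles without one (5.15% of the pool was higher). The other 9 were among the 271 tiles with a motif (3.32% of them), and the remaining 262 motif tiles were not called. All 9 shared the single UGUGU at UTR 2314 to 2318 shown above, which lies at the upstream edge of the run. The 2 longest motif runs each fell in 43 tiles, none of which was called, with LR changes between -0.16 and 0.20 around UTR 369 to 375 and between -0.17 and 0.18 around UTR 1443 to 1450.

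The 9 tiles and their mutated companions differed little. Among the 271 mutated companions, 8 (2.95%) had a higher LR in knockout cells, against 5.15% of the pool. These were the companions of tiles 396 to 403, with LR changes rising from 0.51 at tile 396 to 1.85 at tile 403. For each pair, the LR change of the mutated oligo was subtracted from that of its tile and tested with limma. In the 9 pairs within the run the difference had a median of 0.11 (range -0.08 to 0.23), and none was called. The largest difference was at tile 397 (0.23, SE 0.07, adjusted p = 0.113), followed by tiles 401 (0.20, SE 0.08) and 396 (0.19, SE 0.11), and the smallest at tiles 400 (-0.08, SE 0.10), 399 (-0.03, SE 0.09) and 395 (0.09, SE 0.09). For tile 397 the LR was 0.19 ± 0.18 with TDP-43 and 1.38 ± 0.18 without it, and for its mutated companion 0.28 ± 0.16 and 1.23 ± 0.19 (SD, n = 4). The unmutated and mutated forms both moved by far more than they differed from each other. Over all 271 pairs, 1 was called with a larger change in the tile (6.65% of pairs in the pool were) and none with a smaller one (0% of pairs in the pool were), and 10 pairs had an unadjusted p under 0.05 by limma.

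The called pair was tile 47, with a difference of 0.43 (SE 0.09, adjusted p = 0.00967). Its LR was -0.03, -0.04, -0.02 and -0.02 in wild-type cells and 0.32, 0.12, 0.08 and 0.16 in knockout cells. The mutated companion had 0.09, 0.10, 0.21 and 0.10 in wild-type and -0.13, -0.11, 0.00 and -0.17 in knockout cells, so that the 2 forms moved in opposite directions. The call was lost when any replicate was left out, and the LR change of tile 47 itself was not called (0.20, SE 0.07, adjusted p = 0.140 by edgeR).

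The responding tiles shared a guanine-rich repeat. The bases common to all tiles with an LR change above 3 were UTR 2505 to 2602 (98 nt, chr5:146472882-146472979), and the 5 largest rises shared UTR 2481 to 2614 (134 nt, chr5:146472858-146472991). Both intervals include the GGAU and GGUGG stretches printed above. The tetramer GGAT occurred 38 times in the UTR, 31 of them within the bases of the run. Counted per tile, the 25 tiles above 3 held 21 to 25 copies and 42.3% to 48.5% G, and no uncalled tile reached 21 copies. The whole run held 10 to 25 copies, tiles 450 to 464 held 6 to 11 and the tiles before the run at most 9. Repeats of this density were uncommon: among 260 nt windows at 6 nt steps in the annotated 3′ UTRs of 17802 mouse genes, 40 windows (0.000839%) from 2 genes held 21 or more copies and 588 windows (0.0123%) from 15 genes held 10 or more. No gene had a window with more copies than Wasf3. Across the 514 tiles inside the annotated transcript, the number of GGAT copies went with the LR change (Pearson r = 0.94, Spearman rho = 0.387), as did the percentage of G (0.832 and 0.412). The repeat was chosen with the LR changes known. The cut-offs of 21 and 10 copies are the lowest counts in the tiles above 3 and in the run. These values describe overlapping tiles measured in the same libraries and are not a test. The repeat means that tiles of the run resemble each other beyond their overlap, and the part of read assignment between them in these values was not tested.

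RBNS measured which of the same RNAs were recovered with TDP-43 in vitro. R is the relative frequency of an oligo among reads recovered with the protein over that in input. At 500 nM, 70 of the 481 tiles tested had an R above 1 (12.8% of the pool did) and 136 one below 1 (30.7% of the pool did), by edgeR at an FDR of 0.05. The median log2 R was -0.67 for Wasf3 and -0.62 for the pool. At 50 nM, 6 tiles were higher (12.1% of the pool) and 218 lower (33.1% of the pool), and the median was -1.28 against -0.67. At 5 nM no tile was called in either direction (0.029% of the pool was higher and 0% lower), with 63 tiles at an unadjusted p under 0.05, while DESeq2 called 0 higher and 7 lower. The 6 tiles higher at 50 nM were 1, 5, 440, 447, 448 and 450. TMM scaling, which moves the pool's median log2 R to 0.03 at 500 nM, gave 110 higher and 84 lower tiles at 500 nM and 33 higher and 116 lower at 50 nM. An FDR of 0.01 gave 35 and 61 at 500 nM. Single libraries also moved these counts: 76 tiles were lower at 500 nM without replicate 1 of 500 nM, and at 50 nM 133 were lower without replicate 1 of 50 nM and 48 without replicate 2, which also left 2 higher. At 5 nM, 9 and 7 tiles were lower without replicate 1 or replicate 2 of 500 nM.

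Higher recovery at 500 nM fell in a few places. One was the region of the MPRA response and the strip after it: 10 of the 16 tiles tested in the run and 13 of the 15 tiles from 450 to 464 were higher, with median log2 R of 2.29 and 1.87. A second lay at tiles 61 to 100, where 18 of the first 20 and 16 of the other 20 tiles were higher. These tiles carry the UGUGUGU run at UTR 369 to 375, the UGUGU at 533 to 537, or both, and had no LR change in cells (window medians of -0.02 and 0.02). Another was tiles 1 to 5, at the start of the UTR, with the GUGUGU at UTR 48 to 53 and the GUGUG at 125 to 129. Most tiles with these motifs were not higher. The 25 tiles holding the GUGUGU, tiles 1 to 25, had a median log2 R of -1.56. All 20 of tiles 21 to 40 carried a motif and were lower. The other 8 higher tiles were 57, 59 and 60, just before the second place, and 213, 220, 225, 231 and 232, which hold the UGUGU at UTR 1350 to 1354. Tiles 220, 225, 231 and 232 also hold the longest motif run, at UTR 1443 to 1450. These 4 were the only higher tiles among the 43 that hold that run. The high recovery in the second place was seen at 500 nM only. Summed over tiles 61 to 100, R was 3.11 and 3.43 at 500 nM, 0.463 and 0.521 at 50 nM, 0.799 and 0.655 at 5 nM and 0.842 without protein. Over tiles 395 to 449 it was 5.37 and 5.21 at 500 nM, 3.51 and 2.85 at 50 nM, 1.51 and 2.34 at 5 nM and 0.849 without protein. The summed R of the run was thus above 1 in both libraries at each of the 3 concentrations, while that of tiles 61 to 100 was so at 500 nM alone. Single tiles of the run varied, with log2 R at 5 nM from -2.81 to 2.04 over the 16 tested and none called. Summed over tiles 450 to 464, R was 2.37 and 3.64 at 500 nM, 0.738 and 0.913 at 50 nM, 0.820 and 0.743 at 5 nM and 0.735 without protein. For tiles 1 to 5 the values were 3.43 and 2.90 at 500 nM, 1.61 and 3.16 at 50 nM, 1.10 and 0.883 at 5 nM and 1.27 without protein.

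The run was thinly represented in the RBNS input, which limits these values. Its 55 tiles had 1119 input reads in all (0.0186% of the library, exact 95% binomial interval 0.0175% to 0.0197%, which covers counting error only), and 39 of the 55 had fewer than 20 input reads and were not tested. The 28 tiles from 408 to 435, which hold the largest LR changes, had 244 input reads together. Their summed R was 5.28 and 4.84 at 500 nM, 4.20 and 3.56 at 50 nM, 2.16 and 4.35 at 5 nM and 0.951 without protein. The highest single value among the tiles tested was that of tile 440, on 26 input reads, with R of 7.61 and 7.18 at 500 nM, 4.88 and 4.34 at 50 nM, 2.26 and 4.85 at 5 nM and 1.12 without protein (log2 R at 500 nM of 2.90, SE 0.81, adjusted p = 0.0154 by edgeR). Tile 441 followed with 7.51 and 6.46 at 500 nM (20 input reads, adjusted p = 0.0251), and tile 436 with 6.78 and 6.21 (20 input reads, adjusted p = 0.0322). The 2 libraries at 500 nM lay close together in all 3 tiles. None of the 3 was called at an FDR of 0.01, and tiles 441 and 436 lost the call with the replicate block, without replicate 1 of 500 nM (adjusted p = 0.0752 and 0.0852 by edgeR) or without replicate 1 of 50 nM (0.0513 and 0.0629), and tile 436 also without replicate 2 of 50 nM (0.058).

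The least recovered tiles lay around the U-rich stretch printed above. Over tiles 321 to 380, which include it, summed R was 0.0443 and 0.118 at 500 nM, 0.158 and 0.0811 at 50 nM, 0.515 and 0.388 at 5 nM and 0.652 without protein, on 8628 input reads. Tile 359 had no read in either library at 500 nM and 61 in input, which allows an R of at most 0.019, at least 52.6-fold lower than input when 3 counts are taken over both libraries. Tile 354 had 1 read over both libraries and 81 in input, an R of 0.00477 (95% counting interval 0.000119 to 0.0274). In cells neither tile was called for any change, and tile 359 had a TMM-scaled level of 43.2 ± 3.18 CPM in the soma and 44.6 ± 4.0 in the neurites of wild-type cells, and of 48.3 ± 2.12 and 43.9 ± 3.22 in those of knockout cells (SD, n = 4). Across the 465 tiles inside the transcript that were tested, the percentage of G went with log2 R at 500 nM (Pearson r = 0.813, Spearman rho = 0.813) and the number of GGAT copies less so (0.401 and 0.226), again as a description of overlapping tiles from shared libraries.

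Few Wasf3 pairs were called for a difference in recovery between a tile and its mutated companion. Of 257 pairs tested with limma at 500 nM, none had a higher R in the tile than in its mutated companion (6.75% of pairs in the pool did) and 3 had a lower one (0.547% of pairs in the pool did). At an unadjusted p under 0.05 there were 45 pairs. The 3 pairs were tiles 33, 34 and 35, with log2 differences of -1.33, -1.90 and -2.46 (adjusted p = 0.0476, 0.0487 and 0.0457). None of them was called with the replicate block, at an FDR of 0.01 or without either library at 500 nM, while leaving out either library at 5 nM gave 8 lower pairs and 3 higher ones. The median log2 difference over all Wasf3 pairs was 0.25, against 0.29 in the pool. By motif run, the median difference was 0.44 for the tiles holding UTR 369 to 375 and 0.50 for those holding 533 to 537, the runs within the second place of high recovery. It was -0.95, -1.60 and -1.44 for those holding the 3 runs nearest the start of the UTR.

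SLAM-seq followed the loss of label from the reporter RNAs as the percentage of T positions read as C. At 0 h the run had 2.24% and 2.23% in wild-type cells and 2.04%, 2.05% and 2.12% in knockout cells. After 12 h it had 1.15%, 1.23% and 1.29% in wild-type cells and 1.65%, 0.784% and 0.926% in knockout cells, the first of these from the library that stood apart. Tiles 1 to 394 had 2.05% and 2.05% in wild-type and 1.94%, 1.95% and 2.01% in knockout cells at 0 h, and at 12 h 1.30%, 1.25% and 1.45% in wild-type and 1.49%, 0.538% and 0.595% in knockout cells. In each wild-type library at 12 h the run was below the tiles before it, and in each knockout library at 12 h it was above them. The whole pool had 1.17%, 1.17% and 1.33% at 12 h in wild-type cells. Without 4SU, in cells without doxycycline only, the run read 0.169% ± 0.0363 (SD, n = 3).

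No tile was called for a difference in label loss between genotypes in either direction, out of 484 tested (0% of the pool was, in either direction), by edgeR at an FDR of 0.05. There was 1 tile with an unadjusted p under 0.05, and limma on logit rates called 0. The change in label over 12 h was taken on the log2 scale of the odds of a T being read as C. In knockout minus wild-type cells this change had a median of 0.02 in the run and -0.74 in tiles 1 to 394. It was -0.55 in tiles 450 to 464 and -0.79 in the pool. A value below 0 means that more label was lost in knockout cells. All 54 tiles tested in the run lay above the pool's median. Without the library that stood apart, 443 of the 484 tiles were called lower, that is, with more label lost in knockout cells, as were 96.3% of the pool. Of these, 358 were among the 359 tiles tested before the run, and 14 were among the 54 of the run, whose median was then -0.33 against -1.21 before the run and -1.33 in the pool. The run kept its place above the pool's median, with 54 of 54 tiles, in that fit too. Because the run was bounded with its LR calls known and its tiles overlap, no test was made on this difference.

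In wild-type cells alone no tile was called for loss of label by edgeR (0.00946% of the pool was), with 36 at an unadjusted p under 0.05, and 2 by limma. Without the library that stood apart, which shares its estimate of the spread with this contrast, 479 tiles were called (97% of the pool was). The median log2 change over 12 h in wild-type cells was -0.93 in the run and -0.65 in tiles 1 to 394, against -0.71 in the pool. In knockout cells 459 tiles were called (97.2% of the pool was), 31 of the 54 in the run among them, with medians of -0.92 in the run, -1.38 in tiles 1 to 394 and -1.50 in the pool. Without the library that stood apart all 484 were called (99.7% of the pool was), and the medians were -1.26, -1.88 and -2.03. At 0 h no tile differed between genotypes by edgeR in either direction (0% of the pool did, in either direction), with 0 at an unadjusted p under 0.05 and 0 by limma.

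The endogenous Wasf3 mRNA was measured in the same lines without a reporter. In CAD cells it stood at 2.97, 4.06 and 4.85 TPM in wild-type neurites and at 170, 240 and 215 in knockout neurites, and in soma at 9.73, 13.5 and 13.1 in wild-type and at 14.8, 15.3 and 18.8 in knockout cells. Its LR, on the TMM scale, was 0.14, 0.03 and 0.12 in wild-type cells against 4.77, 5.20 and 5.04 in knockout cells. In TPM, which was not scaled by TMM, the wild-type neurite values lay below those in soma, so the level of the LR depends on the scale. Over all genes tested, 0.225% had a higher LR without TDP-43 in CAD cells and 0.208% had a lower one, and Wasf3 ranked 4 among the genes called. In neurites it rose by 5.53 on the log2 scale (SE 0.11), where 11.8% of genes were higher and 13.5% lower. In soma it rose by 0.61 (SE 0.09, adjusted p = 6.4e-05 by edgeR), where 11.2% were higher and 11.6% lower. In N2A cells the neurite values were 3.62, 7.92 and 7.25 TPM in wild-type and 80.1, 147 and 71.6 in knockout cells, and the LR was -0.20, -0.01 and 0.05 against 3.77, 3.69 and 2.79. There 0.0893% of genes had a higher LR and 0.0112% a lower one, and Wasf3 ranked 2 among the genes called. Of the 17912 genes, edgeR thus called 16 higher and 2 lower, with 5580 at an unadjusted p under 0.05, whereas DESeq2 called 365 higher and 1288 lower. In N2A neurites it rose by 3.85 on the log2 scale (SE 0.20), where 6.48% of genes were higher and 5.1% lower, and in soma its change of 0.32 (SE 0.18, adjusted p = 0.197) was not called, where 10.9% were higher and 5.15% lower. Set beside the reporters, the LR change of the whole mRNA was 4.92 (SE 0.13) in CAD cells, above the 3.66 of tile 413, but a reporter and an endogenous mRNA were scaled separately and their difference was not tested.

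Q331K, a substitution in TDP-43 linked to amyotrophic lateral sclerosis, was compared with the wild-type transgene in cells with unedited Tardbp alleles. The LR of Wasf3 was 0.49, 0.22 and 0.75 with the Q331K transgene and -0.07, 0.04 and 0.31 with the wild-type transgene, so that the 2 sets overlapped, and the change of 0.39 (SE 0.19, adjusted p = 0.999 by edgeR) was not called. No gene was called in either direction in that comparison (0% higher and 0% lower of 13940 genes), with 605 at an unadjusted p under 0.05 and 0 by DESeq2.

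No other gene of the pathway was called for the LR change by edgeR. Of 10 further genes of the WAVE complex and its family, among them Wasf1, Wasf2, Cyfip1, Cyfip2, Nckap1 and Abi1, all were tested and none was called in CAD cells (2 at an unadjusted p under 0.05, and 0 by DESeq2). Wasf1 and Wasf2, the paralogs of Wasf3, had LR changes of -0.23 (SE 0.10) and -0.20 (SE 0.10). In soma, where 11.2% of all genes were higher and 11.6% lower, 1 of the 10 was higher, Cyfip2, a Rac-binding subunit (0.58, adjusted p = 3.02e-06 by edgeR), and 3 were lower, with Abi3 lowest (-1.23). In neurites 2 were higher and 4 lower, against 11.8% and 13.5% of all genes. None of 10 Arp2/3 subunits and none of 3 genes that act upstream, Rac1, Rac3 and Baiap2, was called for the LR change in CAD cells by edgeR (1 and 0 at an unadjusted p under 0.05, and 0 and 0 by DESeq2). In N2A cells edgeR called none of the WAVE genes either, with 6 at an unadjusted p under 0.05, whereas DESeq2 called 4 lower. For Arp2/3 it also called none, with 7 at an unadjusted p under 0.05, and DESeq2 called 5 lower. For the upstream genes it called none, with 2 at an unadjusted p under 0.05, and DESeq2 called 1 lower. Wasf1 changed by -0.57 in N2A cells (SE 0.15, adjusted p = 0.0387 by edgeR).

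The neuron markers were read in both lines. The 6 neuron markers summed to 464 to 1610 TPM over the 12 CAD libraries and to 356 to 874 over the N2A libraries. Among them, however, Dcx, a marker of young neurons, was near 0 in both lines. Its group means were 0.0113 to 0.15 TPM in CAD cells and 0.0421 to 0.396 in N2A cells. The 3 astrocyte markers summed to at most 1.72 TPM in CAD and 3.46 in N2A, and the 3 microglia markers to at most 1.89 and 3.27. In CAD cells the microglia marker Csf1r was at or below 0.00676 TPM as group means. Of the 6 neuron markers, none was called higher and 1 was called lower in knockout against wild-type CAD soma, and likewise in CAD neurites. Over all genes, 11.2% were higher and 11.6% lower in CAD soma, and 11.8% and 13.5% in CAD neurites. In N2A cells 2 of the 6 neuron markers were higher and 0 lower in soma, and none was called in neurites. There 10.9% of all genes were higher and 5.15% lower in soma, and 6.48% and 5.1% in neurites. No marker of the neuron, astrocyte and microglia lists was called for the LR change by edgeR in either line, with 0 at an unadjusted p under 0.05 in CAD cells and 3 in N2A cells, and DESeq2 called 0 in CAD cells and 2 in N2A cells, both neuron markers that were lower.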

How the data were processed

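MPRA libraries were counted by the authors as UMI counts per oligo after cutadapt trimming and bowtie2 alignment, and the deposited RBNS files hold read counts per oligo. The deposited SLAM-seq files hold counts of T positions read as T or C, made by the authors with a modified PIGPEN. Salmon estimated counts and TPM per transcript were deposited by the authors, and counts were summed here to genes of GENCODE vM21 (GRCm38) and rounded. The submitters' processing notes name mm10 and hg38. Versions of these tools are not given in the sources used here.

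UMI, RBNS and gene counts were tested with edgeR 4.0.16 (quasi-likelihood test, TMM for MPRA and RNA-seq, library totals for RBNS) in R 4.3.3, and T-to-C counts with a pair of columns (read as T, read as C) per library in the same test. Pairs of tile and mutated companion were tested with limma 3.58.1 on log2 ratios with 0.5 added. Pairs needed at least 20 UMIs, RBNS oligos 20 input reads and SLAM-seq oligos 1000 T positions. P-values were adjusted over the whole pool or all genes, with thresholds of 0.01 (MPRA, RNA-seq) and 0.05 (RBNS, SLAM-seq). The LR of a replicate sets the neurite against the soma library of the same number. DESeq2 1.42.0 was an alternative. Fits of each main kind were run on simulated data with a fixed spread and no outlying library, which may differ from these libraries. They recovered 90% to 100% of 200 changed features, with 0 to 11 false calls. UMIs were 8 nt long, which allows 65536 sequences, and no Wasf3 oligo exceeded 14069 UMIs. No 2 libraries were duplicates within sampling noise.

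Tiles were named by rule: the 5 largest LR rises (also among tiles without a motif), the 3 highest and 2 lowest R at 500 nM, and the 3 pairs each with the largest and smallest loss of the LR change. Tiles at the edges of stretches and single calls were named after their values were seen. The oligos, gene lists and rules were chosen with earlier results of these data known. Human motor neuron samples were not analysed here, and 1 marker list is not reported here. Tiles were placed by matching motif positions to the transcript. The 16 tiles past its annotated end were left out of sequence counts.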

Additional observations from a re-analysis of the deposited data

Results flagged for a closer look

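In 7 of 96 groups of 4 libraries, 1 library lay far from the other 3 by Dixon's test, where chance gives about 1 in 20. In wild-type cells the LR of tile 413 was -0.03 in 1 replicate. In knockout cells the LR of tile 441 was 3.27 in 1 replicate and that of tile 436 was 3.94. The TMM-scaled level was 14.7 CPM in 1 wild-type soma library for tile 410, 14.2 in 1 wild-type neurite library for tile 441, 49.5 in 1 wild-type neurite library for tile 354 and 37.1 in 1 knockout soma library for tile 400. The causes were not tested.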

How the results depend on the processing

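Counts are of tiles, or of pairs, unless stated. Of the alternative counts over groups of tiles, 258 stayed within 1.5 times the main count and 75 did not. Of those for single named tiles, 156 kept direction and side of the threshold and 10 lost the call, all for R at 500 nM of tiles 440, 441 and 436. None reversed. The cause was not tested except where fewer oligos or libraries entered. Leaving out 1 replicate gave 54 to 55 tiles higher in LR, 55 to 59 in soma, 60 to 68 in neurites and 50 to 53 in wild-type LR. It gave 0 to 1 lower in soma, 0 to 1 lower in neurites, 0 lower in wild-type LR and 0 motif pairs. For SLAM-seq it gave 0 to 429 lower for the difference between genotypes, 0 to 428 for wild-type and 0 to 484 for knockout cells. In RBNS, leaving out all protein libraries of 1 number leaves no residual degrees of freedom and was not run. Each protein library was instead left out alone, an alternative chosen after seeing the data, in which the other library of that concentration is assumed to vary like the rest. It gave 58 to 73 higher and 76 to 143 lower at 500 nM, 2 to 9 and 48 to 244 at 50 nM, 0 and 0 to 9 at 5 nM, and 0 to 3 higher and 0 to 8 lower pairs.

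A minimum of 100 UMIs in every library, which removes low tiles of the run, gave 32 higher in LR, 39 higher and 0 lower in soma, 37 higher and 2 lower in neurites, and 1 lower in wild-type LR. Total counts gave 455 lower in LR, 68 in soma and 463 in neurites, upper-quartile scaling 14 lower in soma and 166 in neurites, and reads in place of UMIs 0 lower in soma. An FDR of 0.05 gave 2 lower in soma, 3 in neurites and 4 in wild-type LR, and DESeq2 2 lower in neurites.

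Libraries with the same replicate number did not deviate together throughout (correlations of -0.059 to 0.179 in MPRA, -0.28 to 0.16 in RBNS and -0.26 to 0.23 in SLAM-seq, and in endogenous RNA -0.15 to 0.51 in CAD, -0.11 to 0.50 in N2A and -0.22 to 0.30 in transgene cells), so the numbers were not taken as pairs. Between the soma and neurite libraries of 1 number and group they were -0.088 to 0.137 in MPRA, -0.12 to 0.42 in CAD, 0.066 to 0.47 in N2A, where all 6 pairs correlated best with their own number, as a hint from the data only, and -0.042 to 0.23 in transgene cells. With the culture as a replicate block the LR change of Wasf3 was 4.91, 3.47 and 0.39, with no change in calls. The replicate block gave 55 higher in LR, 2 lower in neurites, 1 lower in wild-type LR, 0 motif pairs in MPRA, 49 higher and 80 lower at 500 nM, 3 higher and 147 lower at 50 nM, and 0 lower RBNS pairs.

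For RBNS, TMM scaling gave 110 higher and 84 lower at 500 nM, 33 and 116 at 50 nM, and 3 lower at 5 nM. An FDR of 0.01 gave 35 and 61 at 500 nM, 2 and 79 at 50 nM, and 0 lower pairs. With 0 nM as reference, 12 were higher and 100 lower at 50 nM, and pairs were 4 and 9. At least 100 input reads gave 3 and 11 pairs. DESeq2 gave 13 higher at 50 nM and 7 lower at 5 nM. For SLAM-seq, dropping replicate 1 of the knockout cells at 12 h gave 443 lower for the difference between genotypes and 479 in wild-type cells. For wild-type cells limma on logit rates gave 2 and a minimum of 300 T positions gave 1. Centring rates on each library's median gave 0 in knockout cells. Depth left 49 of the 530 tiles below 20 input reads in RBNS.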
